A study of Danio rerio with 6 samples.

Results

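The genes oc90, otomp and tectb encode proteins of the extracellular matrix that lies over the sensory patches of the inner ear. They were chosen by symbol, as every probe set whose platform annotation gives 1 symbol and that symbol is oc90, otomp or tectb, which found 3 of 15726 probe sets, 1 for each gene. The genes were picked with their differences between the groups already known, so the contrast of setb MO1 with control is given for them as a description and carries no test. Expression was measured on 6 Affymetrix arrays with total RNA of whole zebrafish embryos at 48 h after fertilization, given as log2 intensities. The embryos of 3 samples were injected as fertilized single cells with a morpholino against setb, named MO1, and those of the other 3 with a control morpholino. Morpholinos are antisense oligonucleotides that block translation or splicing of the transcript they bind, and setb encodes a zebrafish counterpart of the histone chaperone SET. All embryos of both groups had therefore been injected, and each group received 1 morpholino. Phenotypes were scored as normal-like, mild and moderate, but which class went into which RNA sample, and the strain, are not given in the sources used.

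In fish the matrix over the sensory hair cells carries otoliths, dense stones of calcium carbonate and protein that load the hair bundles and so let the ear sense gravity and sound. Otoliths grow in the endolymph around tethered seeding particles, from proteins that the otic epithelium secretes. The protein of oc90, an otoconin, has domains like those of secreted phospholipase A2 and is the main matrix protein of otoconia, the small ear stones of the mouse. Otolith matrix protein, from otomp, belongs to the transferrin family and is needed in zebrafish for normal otolith growth. Beta-tectorin, from tectb, is a zona pellucida domain protein that in the mouse forms part of the tectorial membrane of the cochlea, an organ that fish lack.

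The 3 genes did not move as one. In setb MO1 embryos oc90 was 2.24-fold higher, otomp 1.30-fold lower and tectb 4.54-fold lower than in control embryos. For each of the 3 genes all setb MO1 arrays lay on one side of all control arrays. Groups that do not overlap were found for 56.5% of all probe sets, 29.0% higher and 27.5% lower in setb MO1 embryos, and the genes were chosen on this contrast, so nothing is read from that count. In RNA of whole embryos, fewer cells of a type and less RNA per cell cannot be told apart. The labels do not say whether the replicates are separate clutches, so errors and p-values may cover technical spread alone.

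The log2 level of oc90 was 10.97, 11.20 and 11.32 in setb MO1 replicates 1 to 3, against 9.96, 10.02 and 10.02 in control replicates 1 to 3. The control arrays lay close together and every setb MO1 array was above them. Mean levels were 11.16 ± 0.18 in setb MO1 and 10.00 ± 0.04 in control embryos (SD, n = 3 each). The log2 difference was 1.16 ± 0.10, with the SE moderated by limma, as for every SE below. The 9 differences between single setb MO1 and single control arrays ran from 0.94 to 1.36. The setb MO1 arrays spanned 0.35 log2 units and the control arrays 0.07, and the gap between the groups was 0.94, larger than both. Among all 15726 probe sets oc90 had the 102nd highest difference.

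The log2 level of tectb was 6.96, 6.83 and 6.40 in the setb MO1 arrays, against 9.15, 8.76 and 8.82 in the control arrays. Every setb MO1 array was lower than every control array, with setb MO1 replicate 3 lowest and control replicate 1 highest. Mean levels were 6.73 ± 0.30 in setb MO1 and 8.91 ± 0.21 in control embryos (SD, n = 3 each). The log2 difference was -2.18 ± 0.16 (moderated SE, smaller than the plain SE from these SDs). Differences between single arrays of the groups ran from -1.80 to -2.76, and the gap between the groups was 1.80, against a range of 0.56 within setb MO1 and 0.39 within control arrays. The difference of tectb was the 24th lowest of all probe sets.

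Every probe set in the deposited table reached 8.45 in at least 1 array, a floor that is not explained in the sources used. All 3 setb MO1 values of tectb lay below that floor and all 3 control values above it. If dim probe sets were removed at that level, tectb passed through its control arrays alone, and such a filter favours probe sets that differ between the groups. The pattern of tectb held for 467 probe sets, and 374 others were above the floor in every setb MO1 array and below it in every control array. Detection calls were not used here, so whether tectb stood above background in the setb MO1 arrays was not tested, and its fold change depends on that. The values of oc90 and otomp were above the floor in all 6 arrays.

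The log2 level of otomp was 9.04, 9.03 and 8.88 in the setb MO1 arrays, against 9.54, 9.26 and 9.28 in the control arrays. The setb MO1 values were all lower, but the groups came within 0.22 of each other, less than the range of 0.28 within the control arrays and more than the 0.16 within the setb MO1 arrays. Mean levels were 8.98 ± 0.09 in setb MO1 and 9.36 ± 0.16 in control embryos (SD, n = 3 each), a log2 difference of -0.38 ± 0.10 (SE). Differences between single arrays ran from -0.22 to -0.67, the largest of them with control replicate 1. Without control replicate 1 the difference of otomp was -0.29. An otomp-sized difference was common, since 29.3% of all probe sets differed by at least as much in either direction, compared with 1.88% for oc90 and 0.203% for tectb.

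**Figure D1:**
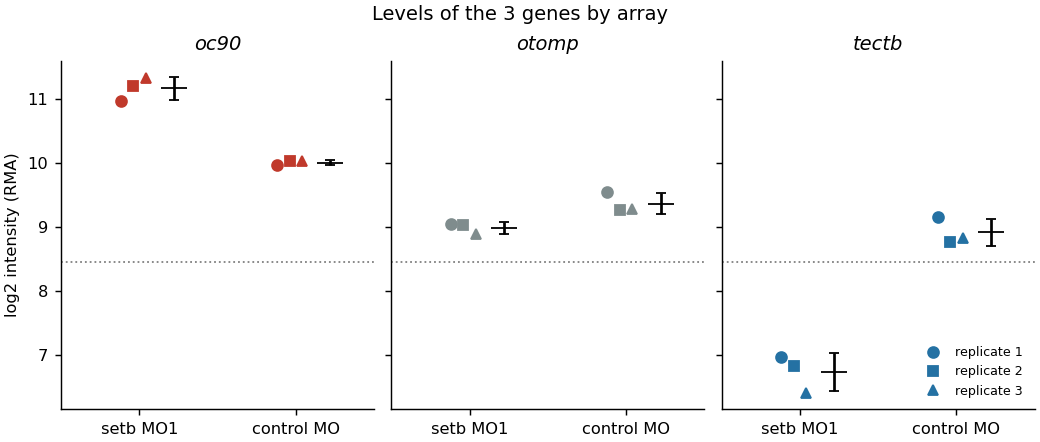
Log2 intensity of oc90, otomp and tectb in each array, setb MO1 left and control right, with the replicate given by the marker and the group mean ± SD (n = 3) beside the points. The dotted line is the level of 8.45 that every probe set reached in at least 1 array: the 3 setb MO1 points of tectb are below it, while oc90 is above its control points and otomp a little below. Heights are comparable within a panel, not between genes, because probe sets differ in their brightness.

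The plot of all differences shows where the genes stood in a contrast that was broad. The median log2 difference over all probe sets was 0.015, and with array medians set equal oc90 differed by 1.16 and tectb by -2.19. Array medians already lay between 9.47 and 9.49, so that step could move a difference little and is no check. Differences of oc90 and tectb lay in opposite tails, and otomp lay on the flank of the centre.

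**Figure D2:**
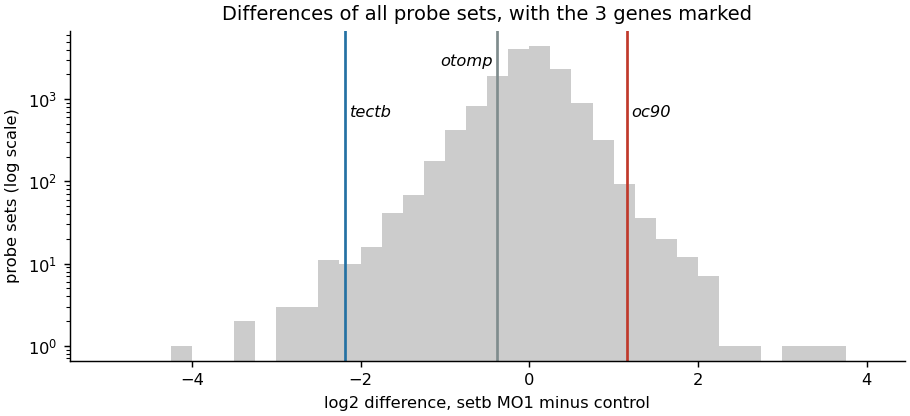
Histogram of the log2 differences, setb MO1 minus control, of all 15726 probe sets in bins of 0.25, with the number of probe sets on a log scale. Vertical lines mark tectb at -2.18, otomp at -0.38 and oc90 at 1.16.

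Within the groups, the genes differed in how tightly replicates agreed. The pooled SD within groups was 0.257 for tectb, more than for 94.0% of all probe sets. It was 0.130 for oc90 and 0.129 for otomp, above the median of 0.105 over all probe sets. In the setb MO1 group replicate 1 had the highest tectb and otomp and the lowest oc90, and replicate 3 had the lowest tectb and otomp and the highest oc90. Relative to the group means, setb MO1 replicate 3 deviated by -0.33 for tectb, -0.11 for otomp and 0.16 for oc90, and setb MO1 replicate 1 by 0.23, 0.06 and -0.20 for the same genes. In the control group replicate 1 stood apart, with deviations of 0.24 for tectb, 0.18 for otomp and -0.04 for oc90. The array with the highest tectb was thus the array with the highest otomp and the lowest oc90 in both groups, a description of 3 arrays each.

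The setb MO1 arrays also differed along the contrast as a whole. With the control mean set to 0 and the setb MO1 mean to 1 along the difference of the groups over all other probe sets, the setb MO1 arrays lay at 0.932, 0.996 and 1.072 for replicates 1 to 3 and the control arrays at -0.051, -0.022 and 0.073. Within setb MO1 the order of oc90, from low to high, and of tectb and otomp, from high to low, was that of these positions. Within control, replicate 1 had the lowest position, the highest tectb and otomp and the lowest oc90. The control array at the highest position, replicate 3, did not have the lowest tectb or otomp, which were in replicate 2. What part these positions have in the levels of the genes was not tested.

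**Figure D3:**
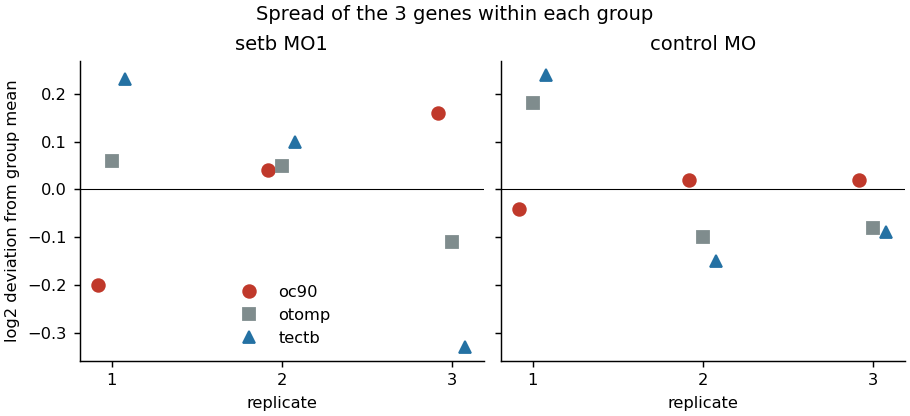
Deviation of each array from the mean of its group on the log2 scale, setb MO1 left and control right, for oc90, otomp and tectb. In replicate 1 of both groups tectb and otomp are above 0 and oc90 below, and in setb MO1 replicate 3 the signs are the other way round.

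Genes with a pattern like each of the 3 were sought by the root mean square difference over the 6 arrays. It compared log2 values centred on each gene's own mean, a likeness that includes the difference between the groups. Values were not scaled, so distances grow with the size and spread of the differences. They cannot rank the 3 genes by how distinct their patterns are. Symbols that begin as clone or locus identifiers do, among them all that begin with fb or bx, were passed over. Genes passed over may lie nearer. For oc90 the nearest genes compared were arpp21 (0.026), phlda3 (0.070), a target of p53, and rnf169 (0.084). Of these, phlda3 reached the floor of 8.45 in setb MO1 arrays alone. The log2 level of arpp21 was 10.05, 10.22 and 10.35 in setb MO1 arrays, against 9.01, 9.10 and 9.10 in control arrays. For otomp they were ubl3b (0.024), kat5b (0.038), a histone acetyltransferase gene, and myclb (0.038), a gene of the Myc family, all with control replicate 1 as the highest array. For tectb the nearest genes compared were farther away on this unscaled measure. They were the homeobox gene shox (0.145), mybl1 (0.163), a gene of the Myb family, and the nuclear receptor gene rorb (0.164). As tectb, these 3 genes lay below 8.45 in every setb MO1 array and above it in every control array, with differences of -2.38 for shox, -1.93 for mybl1 and -2.20 for rorb on the log2 scale. Having been chosen for likeness to tectb on this contrast, they carry no test here, nor do the genes nearest to oc90 and otomp.

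**Figure D4:**
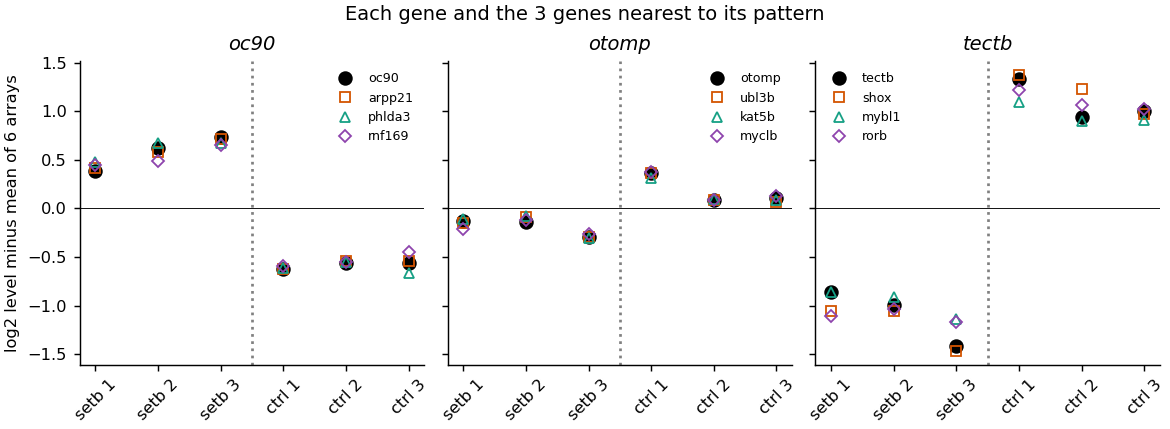
Log2 level minus the mean of the 6 arrays for oc90, otomp and tectb (filled circles) and the 3 nearest of the genes compared (open markers), with setb MO1 arrays left of the dotted line and control arrays right. The genes around oc90 and otomp lie almost on their points, and those around tectb spread more, with shox as low as tectb in setb MO1 replicate 3.

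Other genes of the ear, from lists written from general knowledge, were tested with limma over all 11304 genes, of which 44.7% passed, 23.9% as higher and 20.8% as lower in setb MO1 embryos. On 5 ear lists together, 26 of 88 measured genes rose, 18 fell and 44 did not pass, with a median log2 difference of 0.06 against 0.02 over all genes. Of the 88 genes 3 reached the floor of 8.45 in control arrays alone and 3 in setb MO1 arrays alone. Without the 5 of these 6 that passed the test, whose call may be shaped by that floor, 24 rose and 15 fell. The extremes of the 88 were otx2b, a homeobox gene of brain and ear (-1.54 ± 0.09), and the growth factor gene fgf8a (1.0 ± 0.08, SE, n = 3 each, limma adjusted p = 0.000135 and 0.000232).

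Of 18 genes on the otolith and ear matrix list, which leaves out the 3, 6 were measured. Of these, 2 fell and none rose, with a median of -0.09. The starmaker gene stm, whose protein shapes the otolith crystal, was at 11.22, 10.99 and 10.92 in setb MO1 arrays, against 11.26, 11.13 and 11.09 in control arrays. Its difference of -0.12 ± 0.10 did not pass (limma adjusted p = 0.353), and 2 of the 3 setb MO1 values lay below all control values. The matrix genes sparc (-0.07 ± 0.06), matn4 (0.12 ± 0.10) and col2a1a (0.15 ± 0.08) did not pass either. Those that fell were hsp90b1, an endoplasmic reticulum chaperone gene needed for otolith formation in zebrafish (-0.62 ± 0.08, limma adjusted p = 0.00105), and the cadherin gene cdh11 (-0.29 ± 0.07, 0.0156). The call on cdh11 was lost without setb MO1 replicate 2 (0.0593), which left 1 gene of the list lower. Both are expressed well beyond the ear. In RNA of whole embryos the levels of sparc, matn4 and col2a1a need not come from the ear either.

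For the other ear lists too, levels in RNA of whole embryos need not come from the ear. Among 20 measured genes of otolith mineral supply and endolymph transport, 8 rose and 3 fell, with a median of 0.14. Those that rose included foxi1, a forkhead gene of the otic placode (0.89 ± 0.08), and the carbonic anhydrase gene ca15a (0.75 ± 0.08). They also included the anion exchanger genes slc4a2a (0.74 ± 0.10) and slc4a2b (0.59 ± 0.08). Those that fell included slc4a1a (-0.65 ± 0.09) and cahz (-0.45 ± 0.12), both known from red blood cells, with limma adjusted p-values of these 6 genes of at most 0.0173. The sodium pump subunit gene atp1b2b also fell (-0.54 ± 0.12), but reached 8.45 in control arrays alone, so its call may be shaped by that floor. Over all genes 650 reached the floor in control arrays alone, and 475 of these were called lower. Of 40 otic placode and vesicle regulators 12 rose, 9 fell and 19 did not pass, with a median of 0.06. Those that rose included fgf8a (1.0 ± 0.08) and again foxi1 (0.89 ± 0.08). Genes pax2b (-0.91 ± 0.06) and sox9b (-0.76 ± 0.06) had some of the smallest p-values among those that fell (limma adjusted p = 0.000184 and 0.000197). Of the 50 hair cell genes on the list 10 were measured, of which 2 rose and 3 fell, with a median of -0.17. The proneural gene atoh1a rose (0.53 ± 0.13, limma adjusted p = 0.0116). Among those that fell was barhl1a, at 7.65, 7.68 and 7.67 in setb MO1 arrays, against 9.44, 8.92 and 8.81 in control arrays. It reached the floor in control arrays alone, so its call may be shaped by that floor. Both atoh1a and barhl1a are also expressed in the brain. Without setb MO1 replicate 2 or control replicate 2, only 1 hair cell gene was called higher, since sox21a (0.35 ± 0.10, limma adjusted p = 0.0235) no longer passed (0.076 and 0.0713). Without setb MO1 replicate 3 sox21a did not pass either (0.07), but 2 hair cell genes were still called higher. Of 17 genes of semicircular canal matrix and morphogenesis 6 rose and 1 fell, with a median of 0.12. The link protein gene hapln1a fell (-0.54 ± 0.08), whereas hapln3 rose (0.68 ± 0.08, limma adjusted p at most 0.00187 for both). The matrilin gene matn3b (0.84 ± 0.09) was also called higher, but reached the floor in setb MO1 replicate 1 alone, with 8.57 there and 7.51 to 7.65 in control arrays.

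**Figure D5:**
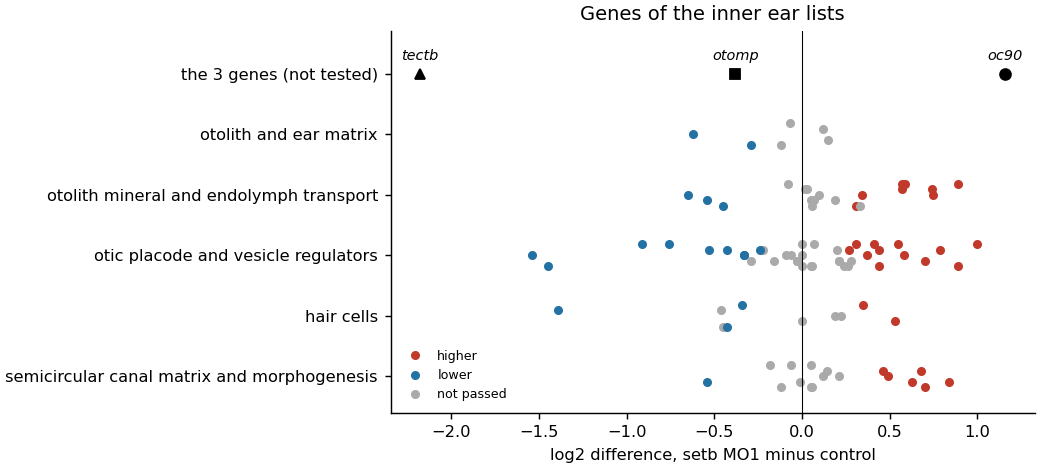
Log2 difference, setb MO1 minus control, of the measured genes on 5 ear lists (points, coloured by the limma call at an adjusted p of 0.05), with tectb, otomp and oc90 in black in the top row, where no test was made. A list has 1 point per gene, and a gene on several lists is drawn in each. Each list has points on both sides of 0.

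Genes on lists for epidermis, lens and p53 targets also differed between the groups. Whether the tissues themselves changed, and their part in the levels of the 3 genes, was not tested. Over all genes 23.9% were called higher and 20.8% lower. Of 17 epidermis genes 13 rose and none fell, and their mean log2 level was 11.34 to 11.40 over setb MO1 arrays and 10.92 to 10.99 over control arrays. Of 15 lens genes 13 fell and 1 rose, with means of 9.78 to 10.10 over setb MO1 arrays and 10.58 to 10.81 over control arrays. Of 15 p53 targets 11 rose and 1 fell, with means of 10.48 to 10.62 over setb MO1 arrays and 9.77 to 9.92 over control arrays. Without genes that reached 8.45 in 1 group alone, 12 epidermis genes and 9 p53 targets rose and 11 lens genes fell. The epithelial gene cdh1 was at 12.59 to 12.66 in setb MO1 and 12.04 to 12.10 in control arrays. The 4 epidermis genes that did not pass were tp63 (0.12 ± 0.07), krt4 (0.06 ± 0.06), krt5 (-0.15 ± 0.09) and krt8 (0.15 ± 0.06). For the lens, cryaa was at 8.30 to 8.77 in setb MO1 and 9.83 to 10.25 in control arrays. The setb transcript itself was at 12.69, 12.60 and 12.66 in setb MO1 arrays, against 12.51, 12.48 and 12.38 in control arrays (0.19 ± 0.07, limma adjusted p = 0.0465, a call lost under 7 of 12 alternatives with adjusted p up to 0.133). The labels do not say whether MO1 acts on translation or on splicing, and transcript levels are no check of a block of translation.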

How the data were processed

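The authors deposited log2 intensities for 15726 probe sets on 6 arrays, 3 per group, and named RMA as the method, per the submitters' processing notes. RMA subtracts background, makes the distributions of the arrays equal and combines the probes of a set. Its software and version are not given in the sources used, nor is any filter that may have removed dim probe sets. Array medians lay between 9.47 and 9.49.

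Titles gave each sample its group and replicate number. Of the probe sets, 11738 had 1 gene symbol, 413 several and 3575 none, and 11497 of the 11738 matched a RefSeq gene table (GRCz12tu, used for names and gene order only), which changed no symbol. For each of 11304 genes the probe set with the highest mean level stood in. Differences were fitted with limma 3.58.1 under R 4.3.3 (lmFit and eBayes over all probe sets, two-sided, Benjamini-Hochberg over all genes, threshold 0.05). Each SE is the moderated SE of this fit, drawn toward a value common to all probe sets. It is smaller than the plain SE for probe sets with a large SD and larger for those with a small SD. The fit was also run on simulated data with independent noise and 200 of 15726 probe sets changed. It recovered 88% of the larger and 75% of the smaller changes, and 4.68% of its calls were false. Far more probe sets were called in the real data, so the simulation is no check of those calls. Genes were named by rule: every measured otolith and ear matrix gene, up to 4 per direction with the smallest p from the other lists, of which the text gives a part, and the 3 genes most like each of oc90, otomp and tectb. Symbols that begin as clone or locus identifiers do were left out of that likeness. The 3 genes, the lists and the rule were chosen with earlier results of these data known. The alternatives tried were quantile normalization repeated on the deposited values, array medians set equal, only probe sets above the median level, a trended and robust prior, replicate number as a block, the mean of a gene's probe sets, and each array left out in turn. No scan dates were found in the sources used. The small number of arrays limits the precision.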

Additional observations from a re-analysis of the deposited data

How the results depend on the processing

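The differences of oc90, otomp and tectb kept their sign and moved by less than the SD within groups in all 31 values computed under the alternatives. For most of these values that outcome was fixed in advance. The replicate block, the mean of probe sets and, for oc90, the filter at the median level cannot change a difference here. Setting array medians equal could move one little, since the medians lay between 9.47 and 9.49. With groups that do not overlap, leaving out an array cannot reverse a sign, nor move a difference by the SD within groups. Without single arrays the differences were 1.08 to 1.26 for oc90, -0.43 to -0.29 for otomp and -2.30 to -2.02 for tectb. A repeated quantile normalization gave 1.15, -0.37 and -2.07. Otomp and tectb were dimmer than the median probe set and have no value under the filter at that level. Under that filter, where fewer probe sets were tested, 1491 genes and 1849 probe sets were called higher and 1217 and 1561 lower, against 2702 and 3563 higher and 2351 and 3361 lower among all. On the lists the same filter left 5 mineral and transport, 1 hair cell, 2 canal and 0 lens genes higher, and 0 hair cell genes lower. Leaving out single arrays gave 2363 to 3541 probe sets higher, the lowest without control replicate 2. On the otolith and ear matrix list it left 1 to 2 genes lower, the chaperone gene hsp90b1 with or without the cadherin gene cdh11. It left 1 to 2 hair cell genes higher and 1 to 2 p53 targets lower (2 without setb MO1 replicate 2). The cause of these changes was not tested. The labels do not say whether replicate numbers pair the samples. Deviations of same-numbered arrays correlated at -0.01, -0.32 and 0.33, against -0.31 to 0.38 for other pairs, too few arrays to decide it. In the fit with a replicate block 2569 genes were called higher and 2220 lower. Of 32 genes given with a difference here that passed, 28 kept their call under each alternative that gave them a value, and none reversed. Among the 28 are shox, mybl1 and rorb, chosen for likeness to tectb on this contrast. They also include atp1b2b, barhl1a and matn3b, which reached the floor in 1 group alone. For these genes a kept call is no support. Nor is it for genes named for the smallest p-values of their list on this contrast, a choice that favours kept calls. For 12 of these 28, dimmer than the median probe set, the filter at that level gave no value.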

Other observations

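Relatives of the otic proteins were measured for oc90 alone. Of 19 genes on a list for the families of oc90, otomp and tectb 4 had a value, with 2 higher in setb MO1 embryos and none lower. Of all genes 44.7% passed in either direction and 23.9% as higher. Besides phospholipase A2 genes, the 4 held the transferrin receptor genes tfr1a and tfr1b, which did not pass and are not of the transferrin family. No transferrin or zona pellucida domain gene of that list had a value. The phospholipase A2 genes pla2g12b (0.39 ± 0.06, limma adjusted p = 0.00271) and pla2g12a (0.30 ± 0.07, 0.0111) were those that rose. The median of these 4 genes was 0.22. Of 11 genes of the lateral line, whose hair cells resemble those of the ear, 6 rose and 3 fell, with a median of 0.22. Those that rose included fgf10a (0.58 ± 0.08), epcam (0.53 ± 0.08) and the chemokine receptor gene ackr3b (0.50 ± 0.08), and prox1a (-0.90 ± 0.08) fell. On this list 7 measured genes also stand on another list, epcam on that of the epidermis and prox1a on that of the lens.

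Genes beside oc90, otomp and tectb in the RefSeq gene order (GRCz12tu), chosen after their values were seen as the nearest measured coding gene within 5 on each side, did not all share their sign. The neighbour of oc90 with a value, efr3a, differed by 0.22 ± 0.08 and did not pass (limma adjusted p = 0.064), though it passed without control replicate 3 (0.0402). Beside otomp, acvr1l differed by -0.14 ± 0.07 and did not pass (0.14), and hs6st1a was lower (-0.35 ± 0.08, 0.0136), a call lost without control replicate 2 (0.0561). Beside tectb, gpam was lower by less (-0.56 ± 0.11, 0.0046), while acsl5 was higher (1.09 ± 0.10, 0.000293).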
